A study of Homo sapiens with 3 samples.

Results

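The genes described here are 39 genes of glycolysis and of the response to low oxygen. They were chosen by name, as 19 genes from glucose uptake to pyruvate kinase, 6 genes that handle pyruvate and lactate, 6 genes of the oxygen-sensing machinery and 8 targets of the hypoxia-inducible factors. All 39 were found among the 58735 genes listed in the count files. The libraries came from DU145, a human line from an androgen-independent prostate cancer. There was 1 library labelled as the control and 2 libraries labelled PD-L1 knockdown, numbered 1 and 2. The methods describe knockdown with a short hairpin RNA in the lentiviral vector pLKO.1, with the empty vector as its control, selection with puromycin and no cloning step. They list 1 hairpin, while the sequenced cells are named DU145 and DU145 PD-L1sh1/2. Whether sh1 and sh2 stand for different hairpins or for separate cultures is not stated. It is also not stated whether the sequenced control carried the empty vector. The comparison asks what loss of PD-L1 does inside the tumour cell.

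The libraries held 14733088 to 15786457 counts, so that a gene with 0 counts may have up to 3 counts, or 0.190 to 0.204 CPM (counts scaled to the library total). Such floors and the intervals below cover counting error only, because amplified reads are not separate molecules. The share of counts on mitochondrial genes was 6.3%, 5.68% and 5.17% in the control and the knockdown-labelled libraries 1 and 2, and its part in the values below was not tested. CD274, the gene of PD-L1, had 204, 213 and 224 counts in the control and in the knockdown-labelled libraries 1 and 2, an edgeR log2 fold change of 0.05 (adjusted p = 0.947). The targeted RNA was not lower, so "knockdown-labelled" is used throughout and any direction depends on the labels being right. The methods state that the stable lines were checked for the protein by Western blot. The paper presents such a blot, with densitometry, for PD-L1 in its DU145 knockdown cells. RNA counts do not measure the protein. Of the cell markers, all 5 epithelial genes were well counted (32106 to 37979 counts in sum), whereas the prostate luminal genes KLK3, KLK2, TMPRSS2 and FOLH1 had 0 counts in every library. The series text names BCPAP, a thyroid cancer line. Of the thyroid markers, TG, TSHR and SLC5A5 had at most 15 counts, PAX8 had 13 to 29, and NKX2-1 had 1833 to 2590. The 8 markers of leukocytes, endothelium and fibroblasts had 112 to 159 counts in sum. In the control, the counts are headed with the name RBM45 and the FPKM values with DU145.

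Glycolysis converts glucose to pyruvate in the cytosol, and tumour cells often turn much of that pyruvate into lactate even where oxygen is present. Hypoxia-inducible factors pair an oxygen-sensitive alpha subunit, such as HIF1A or EPAS1, with ARNT. With oxygen, prolyl hydroxylases of the EGLN family mark the alpha subunit and VHL leads it to degradation, so RNA levels of the alpha subunits do not show how much factor is active. Without oxygen, the factors bind hypoxia response elements near genes for glucose uptake, glycolysis, angiogenesis and mitophagy.

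The core of that element reads ACGTG or GCGTG, and it was searched on both strands (as CACGT or CACGC on the other) in RefSeq promoters of GRCh38.p14, which run from 250 bases before to 50 bases after a listed start site. CACGTG counts on both strands. Of the 39 genes, 33 had a promoter entry, and 61 promoters were listed for them because some genes have several start sites. A match was found in 41 of the 61 (67.2%), in 59.3% of the 17017 promoters of tested genes and in 48.4% of all 35116 promoters. The median GC content of these windows was 69.0%, 64.3% and 58.7% in the same order. No entry was used for SLC2A3, SLC16A1, VHL, VEGFA, BNIP3L and NDRG1. The windows below hold the match nearest to a listed start site, before it where there was one, in genes on which the comparison below turns and in 3 well-known targets of the factor (LDHA, ENO1 and PGK1). The capitals mark the core, and a match is a description of letters, not of binding.
SLC16A3, chr17:82234865-82234893, plus strand: cgtcgtgggtggGCGTGgagcttgcacag
SLC2A1, chr1:42958827-42958855, minus strand: tagcaacagcgaGCGTGccggtcgctagt
PFKP, chr10:3104584-3104612, plus strand: ctcagtgcgtggGCGTGaaccccacagtt
PFKL, chr21:44299877-44299905, plus strand: tgctcagggcccGCGTGacattgcacagg
HIF1A, chr14:61695297-61695325, plus strand: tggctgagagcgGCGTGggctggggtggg
LDHA, chr11:18394478-18394506, plus strand: cgtgggttcccgCACGTccgccggccccc
ENO1, chr1:8878742-8878770, minus strand: ggagctgaggggGCGTGccccggaggcgg
PGK1, chrX:78104053-78104081, plus strand: aaacggaagccgCACGTctcactagtacc
The core begins 13 to 204 bases before the start site in these genes except SLC2A1, where it begins at base 26 after it. Start sites used by these cells were not measured.

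The pathway was strongly expressed in all 3 libraries. The 39 genes took 1.43% of the counts in the control and 1.5% and 1.56% in the knockdown-labelled libraries 1 and 2, and most of that came from PKM, ENO1 and GAPDH (0.84%, 0.894% and 0.922%). By counts, PKM ranked 11, ENO1 16 and GAPDH 26 among all genes of the control. On the FPKM scale, which divides counts by the listed gene length, GAPDH had the highest level in the control (631 FPKM), followed by ENO1 (533), PKM (425), PGAM1 (227), TPI1 (157), LDHA (143) and HIF1A (125). PFKP (65.0), PGK1 (51.6), GPI (49.4) and SLC2A1 (44.6) came next. At the low end, SLC2A3, the glucose carrier of neurons, had 3, 2 and 0 counts, ADM had 25 to 28 and ANKRD37 had 14 or 15. Both knockdown-labelled libraries and the control were at or under the floor for SLC2A3, which was not tested.

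**Figure D1:**
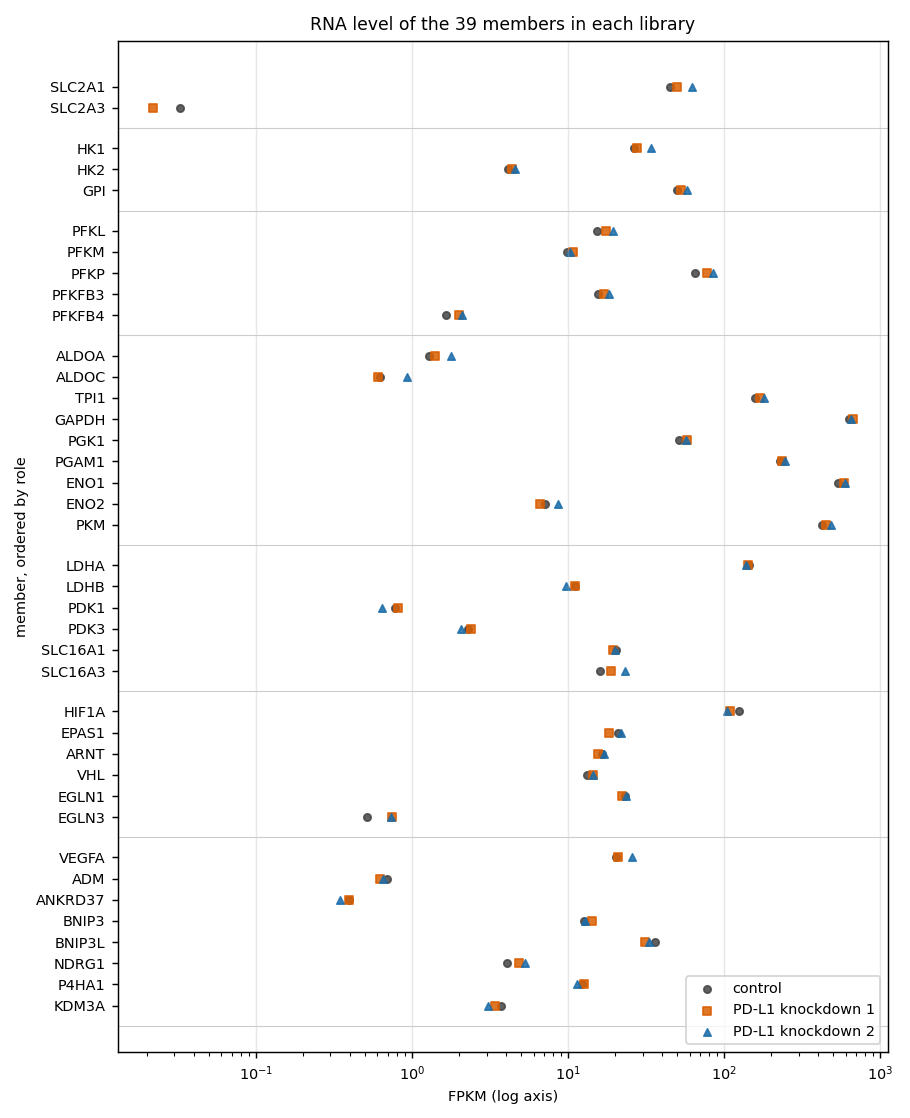
RNA levels of the 39 genes in FPKM on a log axis, with 1 point per library and the genes ordered by role (SLC2A3 is listed at 0 in the knockdown-labelled library 2 and has no point there). Levels span from below 1 FPKM, as for ADM and ANKRD37, to 631 FPKM for GAPDH in the control, and the 3 libraries lie close together for most genes.

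In most families 1 isoform carried most of the RNA, and the order was the same in all libraries. As shares of the FPKM of the listed isoforms, HK1, the general hexokinase, made up 86.6%, 86.3% and 88.1% against HK2, the isoform often induced in tumours. PFKP made up 72.1%, 73.3% and 73.9% of the phosphofructokinase subunits, ENO1 at least 98.6% of the enolases and LDHA 92.9%, 92.8% and 93.4% of the lactate dehydrogenase subunits. HIF1A made up 85.7%, 85.6% and 82.6% against EPAS1, and EGLN1 at least 96.8% against EGLN3. The monocarboxylate carriers were the exception. SLC16A1 (MCT1), which moves lactate in either direction, had 19.3 to 20.2 FPKM over the 3 libraries. SLC16A3 (MCT4), the main exporter of lactate from glycolytic cells, had 15.9 FPKM in the control and 18.9 and 23.0 in the knockdown-labelled libraries 1 and 2. The share of SLC16A3 was thus 44.1%, 49.6% and 53.5%, below SLC16A1 in the control and above it in the knockdown-labelled library 2. These shares are a description without a test, and the GC content of the transcripts differed between both carriers (66.0% for SLC16A3 and 45.5% for SLC16A1). Which carrier is above the other rests on the listed lengths (8995 bases for SLC16A3 and 5312 for SLC16A1). By counts SLC16A3 lay above SLC16A1 in every library, with 2126, 2518 and 3264 against 1593, 1513 and 1676.

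**Figure D2:**
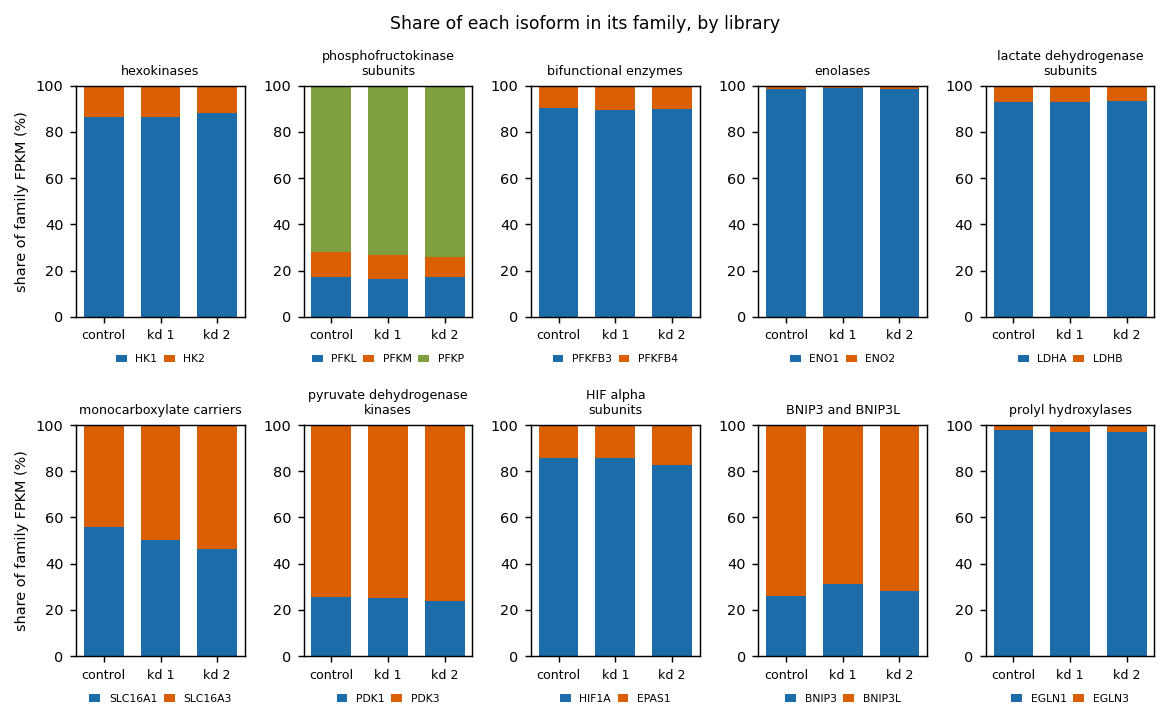
Share of each isoform in the summed FPKM of its family (bars, percent) in the control and in the knockdown-labelled libraries 1 and 2 (kd 1, kd 2); only the listed genes enter each family. SLC16A3 makes up 44.1%, 49.6% and 53.5% of the 2 monocarboxylate carriers, while the other families keep their order. Which of these carriers is above the other rests on the listed gene lengths.

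In the comparison of the 2 knockdown-labelled libraries with the control, no gene of the set passed the test. Of the 38 genes with at least 10 counts in sum, 0 had a Benjamini-Hochberg adjusted p under 0.05 in edgeR's quasi-likelihood test, where 0.247% of the 19849 genes tested were called higher and 0.106% lower. DESeq2's Wald test and limma-voom also called 0. At an unadjusted p under 0.05, 5 genes were higher and 1 was lower in edgeR (3 and 0 in DESeq2, 5 and 1 in limma-voom), beside 6.82% and 4.92% of all genes tested. In DESeq2 these shares of all genes were 1.72% and 0.569%, and in limma-voom 5.35% and 5.01%. The 5 in edgeR were SLC16A3, PFKP, SLC2A1, PFKL and NDRG1, and the 1 lower gene was HIF1A. Of the 10861 better-counted genes, with 100 counts or more on average, 9.08% and 6.55% lay under that value in edgeR. With a single control, the estimate of spread rested on the 2 knockdown-labelled libraries and was shared between genes. In edgeR's main fit and in limma-voom it was shared fully. A gene's own difference between the 2 libraries thus had no separate weight in its standard error. The p-values therefore rest on the pooled spread between these 2 libraries, which may be technical, and do not cover variation between control cultures. In bulk RNA, fewer cells of a type and less RNA per cell cannot be told apart.

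The differences were small and lay mostly on one side for the glycolytic enzymes. The median log2 fold change was 0.11 over the 38 genes and 0.00 over all genes tested. All 18 tested genes from glucose uptake to pyruvate kinase had a positive log2 fold change (median 0.15, from 0.05 to 0.32), against 50.2% of all genes tested. Both knockdown-labelled libraries lay above the control in CPM for 16 of these 18 genes and for 22 of the 38 genes, compared with 37.7% of all genes tested and 39.9% of the better-counted ones. Both lay below it for 6 of the 38, compared with 36.8% and 38.2%. The 6 genes after pyruvate had a median of -0.04 (1 positive). The oxygen-sensing genes had a median of -0.02 (2 of 6 positive) and the targets a median of -0.07 (3 of 8 positive).

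The GC content of the transcripts moved with these values. With all tested genes in 3 equal classes by GC content, the median log2 fold change was -0.14 in the lowest class, -0.01 in the middle class and 0.18 in the highest class. Among the better-counted genes of the highest class, 86.3% had a positive log2 fold change and both knockdown-labelled libraries lay above the control for 74.5%. The median GC content was 54.3% over the 38 genes and 55.9% over the 18 glycolytic genes, against 49.8% over all genes tested. Across the 38 genes, which share the same libraries, the log2 fold change and the GC content had a Pearson's r of 0.59 (0.18 across all genes tested). When trends with GC content and gene length were removed, the median log2 fold change was 0.07 over the 38 genes. It was 0.10 over the 18 glycolytic genes and 0.02 over all genes tested. Of those 18, 16 were still positive, while GAPDH and ENO2 turned negative (-0.13 and -0.03). The medians of the other 3 groups turned positive, to 0.06 for the genes after pyruvate (5 of 6 positive) and 0.12 for the oxygen-sensing genes (4 of 6). For the targets it was 0.02 (4 of 8), about the median of all genes tested. The lower medians of these groups beside the glycolytic genes were thus not kept for the oxygen-sensing genes.

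**Figure D3:**
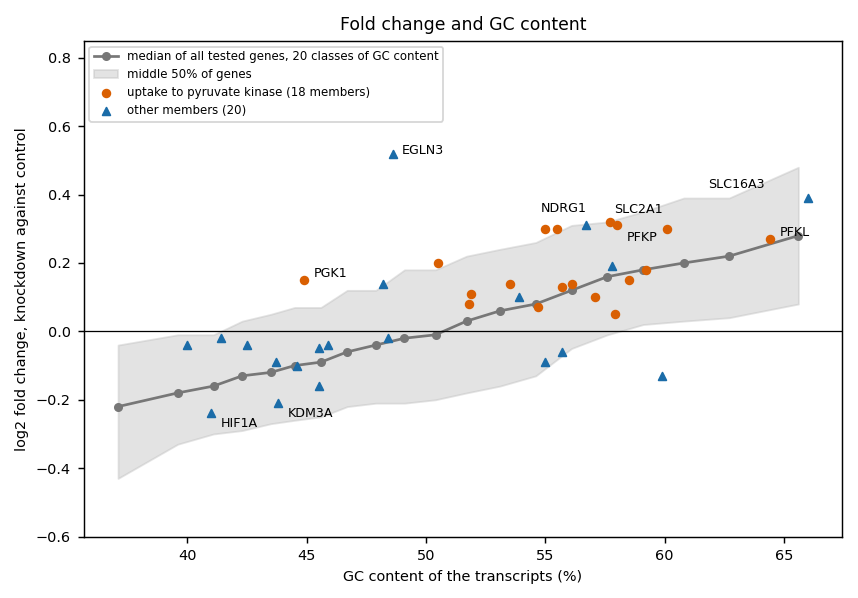
Log2 fold change of the 2 knockdown-labelled libraries against the control (vertical axis) by GC content of the transcripts (horizontal axis, percent). Grey points are the medians of all tested genes in 20 classes of GC content, from -0.22 in the lowest to 0.28 in the highest, with the band holding the middle 50% of genes; orange circles are the 18 genes from uptake to pyruvate kinase and blue triangles the other 20. The grey medians climb with GC content, and the 18 circles, all above 0, have a median GC content of 55.9%.

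Glucose enters through SLC2A1 (GLUT1, chromosome 1, 42925375 to 42959176, minus strand), the carrier of most proliferating cells. It had 3129 counts in the control, 3469 in the knockdown-labelled library 1 and 4633 in library 2. Its ratio to the control was 1.11 (95% counting interval 1.06 to 1.17) in library 1 and 1.38 (1.32 to 1.45) in library 2. Its log2 fold change was 0.32 (SE 0.12, edgeR adjusted p = 0.224) and 0.15 with the trends removed. The knockdown-labelled libraries differed from each other by 1.24 times (1.19 to 1.3), more than library 1 differed from the control. Such intervals compare the reads of 2 libraries, not the conditions. For HK1, library 2 also lay above library 1, with 2475, 2548 and 3357 counts. The ratios of HK1 to the control were 1.03 (0.978 to 1.09) in library 1, an interval that includes 1, and 1.27 (1.2 to 1.33) in library 2. HK2 had 369, 389 and 437 counts, and a difference was not detectable at this depth in either library. GPI, which turns glucose 6-phosphate into fructose 6-phosphate, had 7834, 8265 and 9671 counts, with a log2 fold change of 0.15 (SE 0.11, edgeR adjusted p = 0.633), or 0.07 with the trends removed.

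The phosphofructokinase step, the main control point of the pathway, had a median log2 fold change of 0.27 over 5 genes. With the trends removed it was 0.11, beside 0.12 for the hexokinases and GPI, and the median GC content of the 5 genes was 58.0%. PFKP, the platelet-type subunit (chromosome 10, 3066333 to 3137712, plus strand), had 4665, 5571 and 6415 counts. Both knockdown-labelled libraries lay above the control, with ratios of 1.2 (1.15 to 1.25) and 1.28 (1.24 to 1.33). The ratio of library 2 to library 1 was 1.07 (1.03 to 1.11). Its log2 fold change was 0.31 (SE 0.11, edgeR adjusted p = 0.223) and 0.17 with the trends removed. PFKL, the liver-type subunit (chromosome 21, 44300051 to 44327376, plus strand), had 2025, 2308 and 2741 counts, with a log2 fold change of 0.27 (SE 0.12, edgeR adjusted p = 0.356). With the trends removed it was 0.08, and the GC content of PFKL was 64.4%. PFKM, the muscle-type subunit, had 1073, 1172 and 1177 counts and overlaps SENP1 on the other strand (1059, 979 and 960 counts). PFKFB3 makes the activator fructose 2,6-bisphosphate and had 1408, 1535 and 1771 counts (log2 fold change 0.18, SE 0.13, edgeR adjusted p = 0.596), and 0.06 with the trends removed. PFKFB4, of the same enzyme family, had 150, 180 and 202 counts.

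The enzymes from aldolase to pyruvate kinase had a median log2 fold change of 0.14 over 9 genes. ENO1 had 41767, 45634 and 49255 counts, and its ratio was 1.10 in both knockdown-labelled libraries (1.08 to 1.11 and 1.09 to 1.12). PKM, which makes pyruvate, had 54097, 56939 and 65743 counts with ratios of 1.06 (1.04 to 1.07) and 1.13 (1.12 to 1.15). Counts per gene do not separate the PKM1 and PKM2 splice forms. The log2 fold changes of ENO1 and PKM were 0.14 and 0.13 (SE 0.10 for each, edgeR adjusted p = 0.620 and 0.630), and 0.09 and 0.07 with the trends removed. PGK1 had 4220, 4691 and 4977 counts and ratios of 1.12 (1.07 to 1.16) and 1.10 (1.06 to 1.15). Its GC content of 44.9% was the lowest of the 18 glycolytic genes, and its log2 fold change of 0.15 (SE 0.11, edgeR adjusted p = 0.639) was 0.24 with the trends removed. TPI1 had 6283, 6750 and 7617 counts, with a log2 fold change of 0.14 (SE 0.11, edgeR adjusted p = 0.641), or 0.01 with the trends removed. GAPDH, often used as a reference gene, had 27950, 29250 and 30505 counts, with ratios of 1.05 (1.03 to 1.07) and 1.02 (1.00 to 1.04), and a log2 fold change of 0.05 (SE 0.10, edgeR adjusted p = 0.894). PGAM1 had 8642, 8847 and 9886 counts and ENO2, the neuronal enolase, 448, 418 and 580. The control lay between the knockdown-labelled libraries for ENO2 and ALDOC (27, 26 and 43 counts).

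ALDOA could not be read as the level of aldolase A. It had 75, 81 and 110 counts, 1.29 FPKM in the control beside 157 FPKM for TPI1, which acts next in the pathway. Its gene (chromosome 16, 30064164 to 30070457, plus strand) lies inside AC093512.2 for most of its length, a gene the files describe as aldolase A, which runs from 30053090 to 30070420 on the same strand and had 29, 36 and 27 counts. Of the 31-base words of ALDOA transcripts, 53.6% occur in another gene, above all in AC093512.2 (38.9%). How reads that match both were counted is not stated. Other genes with many shared words were PGAM1 (35.7%), ANKRD37 (33.5%), LDHB (31.4%), SLC2A3 (30.4%) and GAPDH (29.1%). Processed pseudogenes named after the genes took few counts. Those of TPI1 held 93, 95 and 123 counts (at most 1.61% of the gene's own). Those of BNIP3 held 67, 37 and 45 (at most 6.71%), and that of EGLN3 held 6, 3 and 2 (10.7% in the control).

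**Figure D4:**
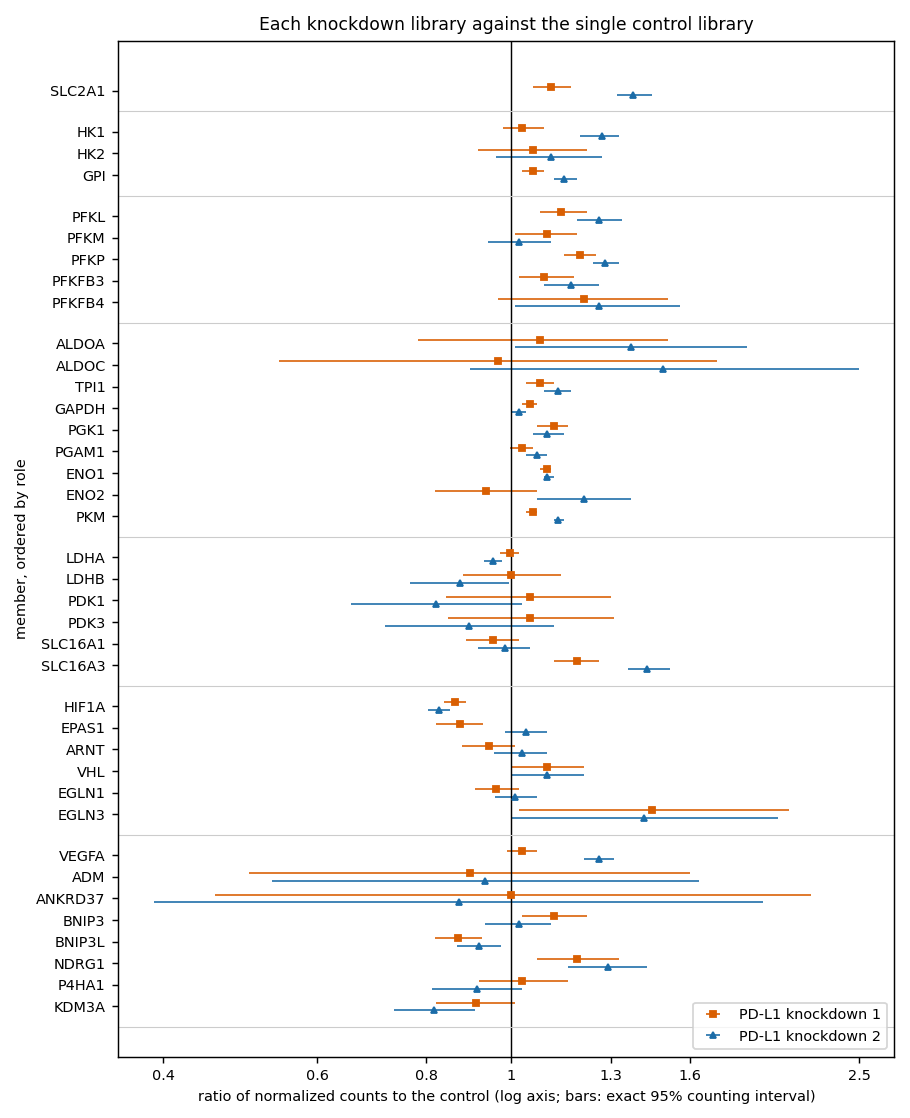
Ratio of TMM-normalized counts to the single control library (log axis) for the 38 genes tested, with squares for the knockdown-labelled library 1, triangles for library 2 and bars for exact 95% counting intervals. Both intervals lie above 1 for 13 genes, SLC2A1, PFKP and SLC16A3 among them, and below 1 for HIF1A and BNIP3L.

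Past pyruvate, SLC16A3 was the gene of its group with a positive log2 fold change. It lies on chromosome 17 from 82228397 to 82261129 on the plus strand and had 2126, 2518 and 3264 counts. The ratio to the control was 1.19 (1.12 to 1.26) in the knockdown-labelled library 1 and 1.43 (1.36 to 1.52) in library 2. Its log2 fold change of 0.39 was the second largest of the 38 and had their smallest adjusted p (SE 0.12, edgeR adjusted p = 0.121). With the trends removed it was 0.21. SLC16A3 overlaps CSNK1D on the other strand (2584, 2512 and 3112 counts), with which it shares 4.8% of its words. LDHA, which makes lactate, had 13175, 13067 and 13439 counts and ratios of 0.996 (0.972 to 1.02) and 0.953 (0.930 to 0.976). LDHB had 487, 486 and 455 counts, and SLC16A1 had 1593, 1513 and 1676. PDK1 and PDK3, which are pyruvate dehydrogenase kinases, had 172, 179 and 151 counts and 168, 176 and 161 counts, with no detectable difference from the control at this depth.

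HIF1A was the gene of the oxygen-sensing group with both knockdown-labelled libraries below the control. It lies on chromosome 14 from 61695513 to 61748259 on the plus strand and had 9565, 8223 and 8465 counts, with ratios of 0.863 (0.838 to 0.889) and 0.827 (0.803 to 0.851). Its log2 fold change was -0.24 (SE 0.11, edgeR adjusted p = 0.349), the lowest of the 38. With the trends removed it was -0.10, and the GC content of HIF1A was 41.0%. EPAS1 (HIF-2 alpha) had 2264, 1968 and 2529 counts, so that the control lay between both libraries. ARNT (1595, 1497 and 1751 counts) and EGLN1, the main prolyl hydroxylase (2490, 2384 and 2701 counts), behaved likewise. VHL had 821, 902 and 968 counts, ratios of 1.10 in both libraries (1.00 to 1.21 for each) and a log2 fold change of 0.14 (SE 0.14, edgeR adjusted p = 0.735). EGLN3, a prolyl hydroxylase that is itself induced by low oxygen, had 56, 81 and 85 counts. Its log2 fold change of 0.52 was the largest of the 38 and had a standard error of 0.32 (edgeR adjusted p = 0.532). Its span holds SPTSSA on the same strand (1596, 1581 and 1670 counts).

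The targets of the factors had log2 fold changes of both signs, from -0.21 to 0.31. NDRG1, a stress-response gene on chromosome 8 (133237171 to 133302022, minus strand), had 594, 705 and 819 counts and ratios of 1.19 (1.07 to 1.33) and 1.29 (1.16 to 1.43). Its log2 fold change was 0.31 (SE 0.15, edgeR adjusted p = 0.390) and 0.27 with the trends removed. VEGFA, the angiogenic growth factor, had 4357, 4468 and 5855 counts. Its ratio was 1.03 (0.988 to 1.07) in the knockdown-labelled library 1 and 1.26 (1.21 to 1.31) in library 2, the same form as HK1. On the other side, BNIP3L, a mitophagy receptor, had 2292, 1986 and 2254 counts and ratios of 0.870 (0.819 to 0.925) and 0.918 (0.866 to 0.974), with a log2 fold change of -0.16 (SE 0.12, edgeR adjusted p = 0.630), or -0.06 with the trends removed. KDM3A, a histone demethylase, had 743, 675 and 650 counts. BNIP3, the relative of BNIP3L, had 999, 1113 and 1089 counts, and P4HA1, a collagen prolyl hydroxylase, had 563, 579 and 551. ADM, the vasodilator adrenomedullin, had 28, 25 and 28 counts and ANKRD37 had 15, 15 and 14.

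Counting intervals excluded a ratio of 1 in both knockdown-labelled libraries for 13 genes on the higher side and 2 on the lower side, where 10.3% and 8.69% of all tested genes and 16.8% and 13.7% of the better-counted ones did so. The higher genes were SLC2A1, GPI, PFKL, PFKP, PFKFB3, TPI1, GAPDH, PGK1, ENO1, PKM, SLC16A3, VHL and NDRG1, 10 of them enzymes or the carrier from uptake to pyruvate kinase. Both libraries share the control, so they are not independent in this count. The 2 knockdown-labelled libraries also differed from each other. Library 2 was above library 1 beyond counting error for 14 of the 38 genes (12.9% of all tested genes) and below it for 8 (13.3%). These shares were not taken over the better-counted genes, and intervals narrow as counts rise. Among the genes that differed, ENO2 had the largest ratio of library 2 to library 1 (1.29, 1.14 to 1.47), followed by SLC2A1 (1.24), HK1 (1.23), VEGFA (1.22) and SLC16A3 (1.21). PDK1 (0.784), LDHB (0.871), P4HA1 (0.885) and KDM3A (0.895) had the lowest.

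A wider list of 117 genes of these pathways also had no call. Of the 116 found, 101 had enough counts, and 0 had an adjusted p under 0.05 in edgeR, DESeq2 or limma-voom. At an unadjusted p under 0.05, 5 were higher and 3 lower in edgeR, beside 6.82% and 4.92% of all genes tested. In DESeq2 0 were higher and 1 lower, beside 1.72% and 0.569% of all genes. In limma-voom 5 were higher and 3 lower, beside 5.35% and 5.01%. The median log2 fold change of the 101 genes was 0.07. The 5 higher in edgeR were SLC2A6, PGAM5, BSG, ELOB and HMOX1, and the 3 lower included EMB and ERO1A, all named after their values were seen. PGAM5 was counted with the other glycolytic isoforms and regulators, and whether it acts in glycolysis was not tested. BSG (basigin), the partner that carries SLC16A1 and SLC16A3 to the cell surface, had 8537, 9719 and 11098 counts, with a log2 fold change of 0.24 (SE 0.11, edgeR adjusted p = 0.365). EMB (embigin), the alternative partner of SLC16A1, had 1878, 1476 and 1590 counts, with a log2 fold change of -0.34 (SE 0.12, edgeR adjusted p = 0.217). ELOB, a subunit of the VHL complex, had 881, 1087 and 1226 counts and HMOX1, which breaks down heme, had 609, 708 and 939. ERO1A, an oxidase of the endoplasmic reticulum that low oxygen induces, had 2939, 2400 and 2646 counts. The GC content was 58.7% to 65.1% in the 5 genes, 37.7% in EMB and 41.7% in ERO1A. Of the 101 genes, 62 had a positive log2 fold change (61.4%), beside 50.2% of all genes tested. By group, it was positive for 2 of 6 other sugar transporters (median -0.16) and 5 of 12 other glycolytic isoforms and regulators (-0.01). It was positive for 9 of 15 genes of gluconeogenesis and glycogen (0.06), 6 of 8 of the pentose phosphate pathway (0.13) and 9 of 15 of pyruvate entry and other monocarboxylate carriers (0.07). For 10 of 12 other oxygen-sensing genes (0.07) and 21 of 33 further targets of the factors (0.09) it was positive as well. Among these targets CA12, a carbonic anhydrase, had the highest log2 fold change, 0.80 (SE 0.45, edgeR adjusted p = 0.480), with 25, 42 and 48 counts. LOX had the lowest, -0.57 (SE 0.3, edgeR adjusted p = 0.451), with 91, 56 and 71 counts.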

How the data were processed

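RNA-seq of 3 DU145 libraries was used. Per the methods, poly(A) RNA was sequenced by a service company. The submitters' processing notes name Bowtie2 2.0.6, TopHat2 2.0.9, Cufflinks 2.1.1 and Cuffdiff 2.1.1 without roles. The counting tool and the use of strand are not given in the sources used here. The authors deposited counts per gene without normalization, and FPKM, which equals counts over listed gene length times a constant per library. Identifiers and positions are those of GRCh38 (GENCODE 29).

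The test was run on the 19849 genes with at least 10 counts in sum, using edgeR 4.0.16 (R 4.3.3; TMM, glmQLFit, glmQLFTest, Benjamini-Hochberg), 2 knockdown-labelled libraries against 1 control, with 1 residual degree of freedom. Ratios of 2 libraries have exact conditional 95% intervals (scipy 1.17.1), scaled by TMM-normalized totals. DESeq2 1.42.0, limma-voom (limma 3.58.1), other scalings and count minimums, removal of trends with length and GC content (20 classes each) and leaving out a library were tried. Some marker and pathway genes are not reported here. The scripts were tested on simulated data. GC content is the mean over a gene's transcripts. The genes and lists were chosen with earlier results of these data known. Log2 fold changes with errors are given for genes of the 38 with an unadjusted p under 0.05 or with both intervals excluding 1. They are also given for EGLN3, CA12, LOX and 2 partners of the monocarboxylate carriers, chosen after their values were seen.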

Additional observations from a re-analysis of the deposited data

How the results depend on the processing

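No gene of the 38 had an adjusted p under 0.05 with DESeq2 size factors, library totals alone, a minimum of 1 or 100 counts in sum, the DESeq2 Wald test, limma-voom or trends with gene length and GC content removed. The count at an unadjusted p under 0.05 was 5 higher and 1 lower with edgeR, 3 and 0 with the DESeq2 Wald test (1.72% and 0.569% of all genes), and 4 and 0 with the trends removed (HK1, PGK1, SLC16A3 and NDRG1; 4.74% and 2.93% of all genes). The median log2 fold change of 0.11 ranged from 0.07 with the trends removed to 0.11 over the other settings with 3 libraries, and was 0.07 and 0.15 without the knockdown-labelled library 2 or 1, where 1 library against 1 gives a value with no test.
Removing the trends turned the sign of GAPDH (-0.13), ENO2 (-0.0278), LDHA (0.0755), PDK1 (0.0667), PDK3 (0.0621), SLC16A1 (0.0449), ARNT (0.0558), EGLN1 (0.18) and P4HA1 (0.0673). With either knockdown-labelled library left out, values of both signs were found for EPAS1 (-0.20 and 0.0672), ARNT (-0.0848 and 0.0421), EGLN1 (-0.0561 and 0.0248), ALDOC (-0.0475 and 0.58), ENO2 (-0.0933 and 0.28), LDHB (-0.19 and 0.0037), PDK1 (-0.28 and 0.0642), PDK3 (-0.15 and 0.0737), ANKRD37 (-0.19 and 0.0066) and P4HA1 (-0.12 and 0.0471). SLC2A1 had 0.16 with library 1 alone and 0.47 with library 2 alone, and SLC16A3 had 0.25 and 0.53. The cause was not tested. Genes under 100 counts, such as ADM and ANKRD37, have intervals too wide to show changes of this size. No paired analysis was possible because the control is a single library without a replicate number.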
